A study of Mus musculus with 7 samples.

Results

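Fc receptors and Toll-like receptor sensors were followed as 9 genes: the Fc gamma receptors Fcgr1, Fcgr2b and Fcgr3, the signalling adaptors Fcer1g and Tyrobp, the coreceptor Cd14, and the Toll-like receptors Tlr2, Tlr4 and Tlr7. They were chosen by gene symbol in the platform annotation, which gave 15 probe sets of 22626 on the array and 9 of 12393 genes with a symbol of their own. Fcgr2b had 4 probe sets, Tlr7 had 3, Tlr4 had 2 and the other 6 genes had 1 each. All 15 probe sets passed the filter on low signal (a mean of at least 95.14 signal units in at least 1 group, taken on the log2 scale). The counted probe set of each of the 9 genes, the one with the highest mean, lay above that limit in all 4 groups, whereas 1 further probe set of Tlr4 and 2 of Tlr7 passed through the syngeneic array alone.

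Receptors for the constant part of IgG let macrophages, neutrophils, natural killer cells and B cells read antibody bound to a target. Fcgr1 and Fcgr3 are activating and depend on Fcer1g, a short membrane adaptor with an ITAM, the tyrosine motif that recruits the kinase Syk. Tyrobp (DAP12) is a second ITAM adaptor that serves many receptors of myeloid and natural killer cells, and Fcgr2b is the inhibitory receptor, whose ITIM motif recruits the phosphatase encoded by Inpp5d and which is the Fc gamma receptor of B cells. Toll-like receptors sense microbial molecules: Tlr2 binds bacterial lipoproteins, Tlr4 binds lipopolysaccharide with the help of Cd14, and Tlr7 detects single-stranded RNA in endosomes. In the spleen, macrophages of the red pulp and marginal zone carry most of these sensors.

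Spleen cells of female C57BL/6 (B6) mice aged 9 to 12 weeks were profiled on 7 Affymetrix arrays, on day 4 after 10.0 Gy of irradiation and a transplant of splenocytes given 4 to 6 h later. The syngeneic group (1 array) received B6 cells, and no antibody is named for it. The other groups (2 arrays each) received allogeneic cells of the C3H/HeN strain, which unlike C3H/HeJ carries a working Tlr4. These groups were given control rat IgG (isotype), anti-ICOSL antibody from day 0 or anti-ICOSL antibody from day 3. Doses were 500 µg first and 200 µg every other day. By this schedule the day 3 group had only its first injection before collection on day 4. The anti-ICOSL groups therefore differ in dose and length of exposure as well as in start. ICOSL is the ligand of the T cell costimulator ICOS, and the comparisons ask how acute graft-versus-host disease and its treatment alter the spleen. RNA of allogeneic mice (4 per group and experiment) was combined, so p-values measure the spread between arrays, which may be technical. The syngeneic group has a single array, and donor strain, antibody injection and the allogeneic response cannot be told apart in any comparison with it. Irradiated recipients keep some host cells, and in such bulk RNA fewer cells of a type and less RNA per cell cannot be told apart.

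Array medians ran from 145.3 to 174.3 signal units. Gapdh 3′/5′, which measures RNA integrity, was 0.957 on the syngeneic array and 0.767 to 0.865 on the allogeneic arrays, and its part in the results was not tested. Values below are MAS5 signals on a linear scale, and changes are differences of log2(signal + 50), which understate the change of dim genes.

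Of the 9 genes, 5 fell in the isotype group compared with the syngeneic array and none rose. They were both ITAM adaptors, both activating Fc gamma receptors and Cd14, with log2 changes from -1.91 to -2.56, while the inhibitory Fcgr2b and the Toll-like receptors Tlr2, Tlr4 and Tlr7 did not pass the test. Over all 9017 genes tested, 4.28% fell and 2.67% rose. For 7 of the 9 genes both isotype arrays lay below the syngeneic array, as they did for 39% of all genes. The median change of the 9 genes was -1.91, against -0.01 for all genes. Tests were made with limma in 1 fit over all 7 arrays, with p-values adjusted by the Benjamini-Hochberg method over 15494 probe sets and a threshold of 0.05.

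Tyrobp had a signal of 5009 in syngeneic recipients, 1346 and 1239 with isotype antibody, 1358 and 1559 with anti-ICOSL from day 0, and 1446 and 1390 with anti-ICOSL from day 3. The 6 allogeneic arrays lay close together, all far below the syngeneic one. It fell by 1.91 ± 0.20 (SE) on the log2 scale in isotype (limma, adjusted p = 0.0056). Fcer1g had a signal of 4019 in syngeneic recipients, 900 and 738 with isotype antibody, 1104 and 944 with anti-ICOSL from day 0, and 1064 and 826 with anti-ICOSL from day 3. Here too the syngeneic array stood apart and the allogeneic groups were close to each other. The log2 change in isotype was -2.23 ± 0.25 (limma, adjusted p = 0.00667).

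**Figure D1:**
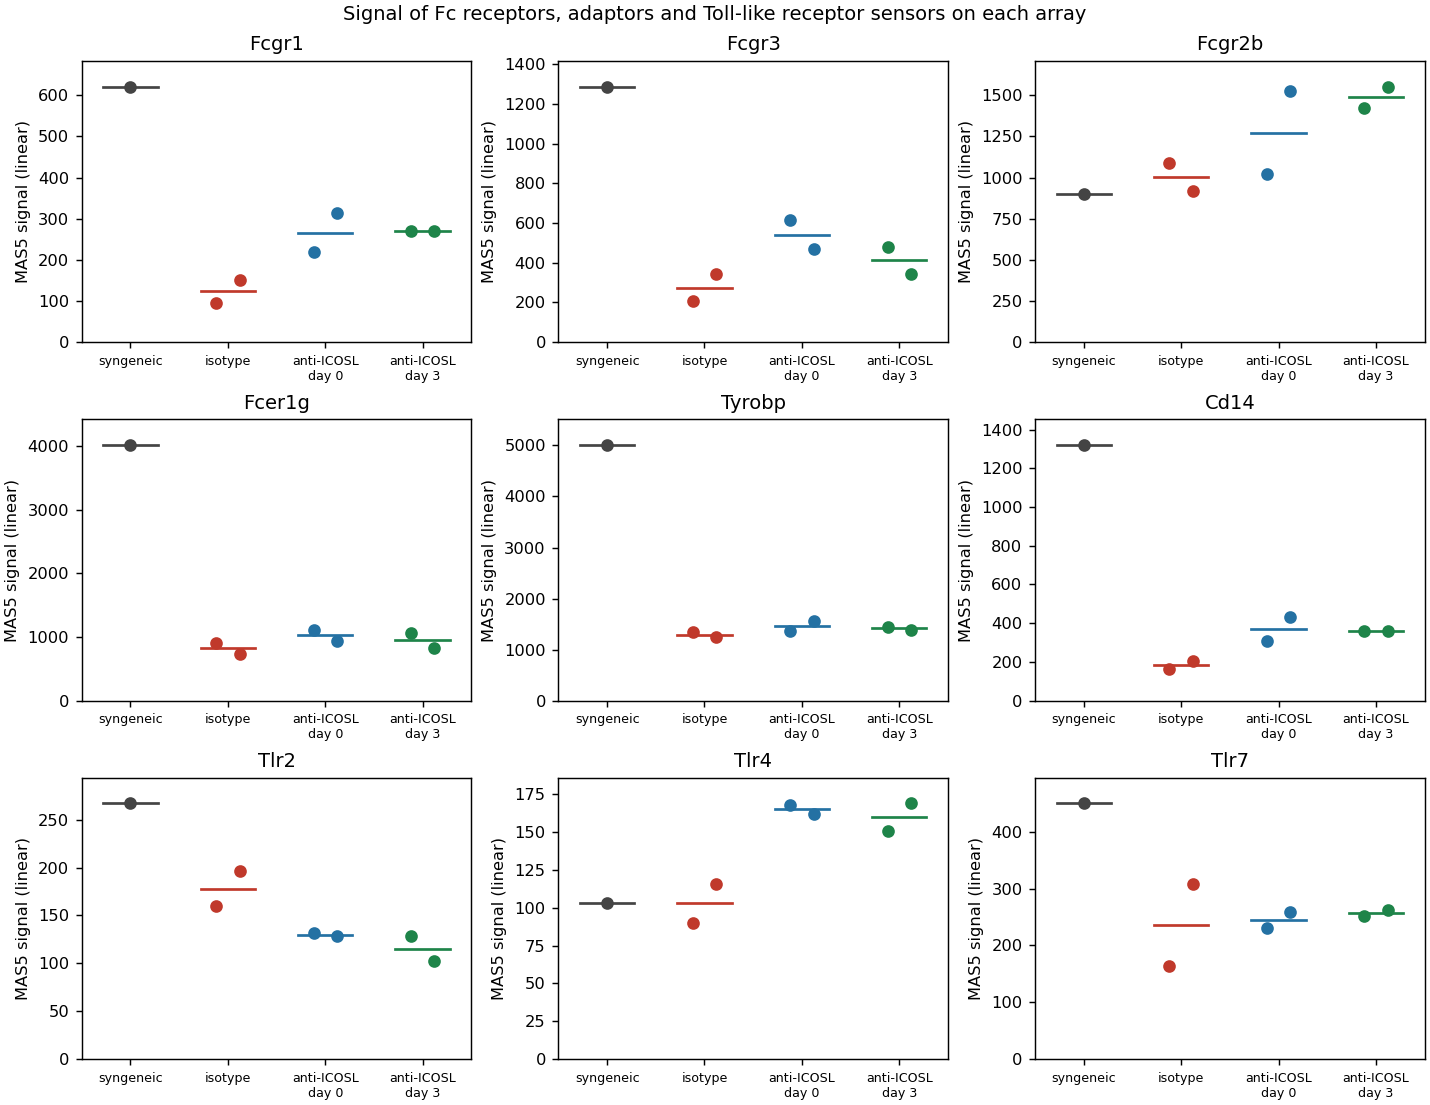
MAS5 signal (linear axis from 0) of the counted probe set of each gene on the 7 arrays. Points are arrays and short lines are group means. Fcer1g, Tyrobp, Cd14, Fcgr1 and Fcgr3 were highest on the syngeneic array, whereas Fcgr2b lay between 899 and 1552 on all 7 arrays.

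Fcgr1, which encodes the high-affinity IgG receptor CD64, had a signal of 621 in syngeneic recipients, 96.3 and 151 with isotype antibody, 218 and 313 with anti-ICOSL from day 0, and 270 and 271 with anti-ICOSL from day 3. The isotype arrays were the lowest, and both anti-ICOSL groups lay between isotype and syngeneic without overlap. The log2 change in isotype was -1.97 ± 0.29 (limma, adjusted p = 0.0145). Fcgr3, which encodes CD16, had a signal of 1287 in syngeneic recipients, 206 and 344 with isotype antibody, 617 and 467 with anti-ICOSL from day 0, and 481 and 345 with anti-ICOSL from day 3. The syngeneic array was again the highest, but the lower day 3 array all but equalled the higher isotype array. The log2 change in isotype was -2.07 ± 0.34 (limma, adjusted p = 0.0213). Both calls ended without isotype array 1 (adjusted p = 0.0519 for Fcgr1 and 0.0627 for Fcgr3), which left 3 of the 9 genes called.

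Cd14, the coreceptor that passes lipopolysaccharide to Tlr4, had a signal of 1321 in syngeneic recipients, 163 and 204 with isotype antibody, 309 and 434 with anti-ICOSL from day 0, and 360 and 361 with anti-ICOSL from day 3. This was the largest change among the 9 genes, a log2 change of -2.56 ± 0.25 in isotype (limma, adjusted p = 0.0045). The groups did not overlap, apart from day 0 and day 3. The calls of Cd14, Fcer1g and Tyrobp in isotype held under all 15 alternative settings of each gene. All of these settings rest on the same single syngeneic array, so they do not test how far the calls depend on it.

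The inhibitory receptor did not pass in any comparison. On its counted probe set, Fcgr2b had a signal of 899 in syngeneic recipients, 1086 and 919 with isotype antibody, 1019 and 1525 with anti-ICOSL from day 0, and 1423 and 1552 with anti-ICOSL from day 3. The syngeneic array was the lowest of the 7, but the isotype and day 0 arrays overlapped. The log2 change in isotype was 0.14 ± 0.28 (limma, adjusted p = 0.806; 95% interval -0.53 to 0.82). Relative to the syngeneic array, the log2 ratio of Fcgr3 to Fcgr2b was -2.64 to -1.18 on the counted probe set, below 0 in 6 of 6 allogeneic arrays, and it was lower in 6 of 6 with each of the other 3 probe sets of Fcgr2b as well. The ratio of Fcgr1 to Fcgr2b was also lower in 6 of 6 arrays with each probe set, at -2.46 to -1.50 on the counted one. Differences were smaller on some arrays with the other probe sets. With 1455332_x_at the ratio ran from -2.23 to -0.51 for Fcgr3 and from -2.05 to -0.24 for Fcgr1. All of these ratios are set against the same single syngeneic array and reuse the same signals of Fcgr1 and Fcgr3. The counts of 6 of 6 are therefore not separate support for the falls given above. No test is given, since a permutation of 1 against 6 arrays cannot go below p = 0.143.

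The promoters of these Fc receptor genes are shown because Fcgr2b and Fcgr3 lie near each other on chromosome 1, in the same region as Fcer1g, and 2 of the 3 fell in isotype. The 250 bases before the annotated start, from the RefSeq annotation of build GRCm38.p6, were chr3:96293970-96294219 for Fcgr1, chr1:171059404-171059653 for Fcgr3, chr1:171234350-171234599 for Fcer1g and chr1:170976072-170976321 for Fcgr2b, all on the minus strand and written 5′ to 3′ along the gene. For Fcgr3, the first of 2 annotated windows was taken. Capitals mark matches to 2 motifs searched on both strands: GAGGAA, the core letters bound by the myeloid factor PU.1, and GAAA followed by any 2 bases and GAAA, the form bound by interferon regulatory factors.
Fcgr1: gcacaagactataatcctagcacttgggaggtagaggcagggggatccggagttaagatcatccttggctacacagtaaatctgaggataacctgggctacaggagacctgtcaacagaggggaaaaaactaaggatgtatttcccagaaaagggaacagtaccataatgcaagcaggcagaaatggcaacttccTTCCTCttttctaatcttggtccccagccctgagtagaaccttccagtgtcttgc
Fcgr3: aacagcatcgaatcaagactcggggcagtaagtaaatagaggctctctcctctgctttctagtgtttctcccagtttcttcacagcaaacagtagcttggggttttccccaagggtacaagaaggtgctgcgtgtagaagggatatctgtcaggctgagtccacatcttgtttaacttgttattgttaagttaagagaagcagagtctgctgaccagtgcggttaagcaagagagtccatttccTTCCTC
Fcer1g: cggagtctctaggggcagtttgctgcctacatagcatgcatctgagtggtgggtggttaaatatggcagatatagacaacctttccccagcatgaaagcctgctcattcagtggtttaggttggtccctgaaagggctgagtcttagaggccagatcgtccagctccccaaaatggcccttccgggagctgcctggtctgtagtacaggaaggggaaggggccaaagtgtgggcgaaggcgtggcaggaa
Fcgr2b: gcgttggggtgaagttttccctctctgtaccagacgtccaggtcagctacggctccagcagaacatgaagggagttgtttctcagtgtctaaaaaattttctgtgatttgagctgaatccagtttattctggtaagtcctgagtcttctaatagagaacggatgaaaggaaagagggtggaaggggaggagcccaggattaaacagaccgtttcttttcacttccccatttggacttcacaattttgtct

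GAGGAA matched once in Fcgr1, 55 bases before the start, and once in Fcgr3, 6 bases before the start, both on the opposite strand. It is found in 23.3% of all 32851 promoter windows of this length. The paired GAAA motif, found in 3.0% of windows, matched in none of the 4, and the windows of Fcer1g and Fcgr2b held no match to either motif. No matches overlapped, and a match is a run of letters, not a shown binding site.

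Among the Toll-like receptors, Tlr2 had a signal of 267 in syngeneic recipients, 160 and 196 with isotype antibody, 132 and 128 with anti-ICOSL from day 0, and 128 and 102 with anti-ICOSL from day 3. It was highest on the syngeneic array, and the anti-ICOSL arrays lay below those of isotype without overlap. In isotype the log2 change was -0.48 ± 0.22 and did not pass (limma, adjusted p = 0.254). Tlr7 had a signal of 450 in syngeneic recipients, 163 and 308 with isotype antibody, 230 and 259 with anti-ICOSL from day 0, and 251 and 262 with anti-ICOSL from day 3. The 3 allogeneic groups overlapped, all below the syngeneic array, with a log2 change of -0.86 ± 0.32 in isotype (limma, adjusted p = 0.178). Its other 2 probe sets had 149 and 191 on the syngeneic array and 8.56 to 116 on the allogeneic ones. Since they passed the filter through the syngeneic array alone, their direction was set by the filter and they add nothing to the counted one.

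Tlr4 was the dimmest of the 9 genes, near the filter, and its probe sets disagreed. The counted one had a signal of 103 in syngeneic recipients, 90 and 116 with isotype antibody, 168 and 162 with anti-ICOSL from day 0, and 151 and 169 with anti-ICOSL from day 3. On it, isotype and syngeneic arrays overlapped and both anti-ICOSL groups were higher than either. The second probe set was highest on the syngeneic array, at 140, and lay between 11 and 88.3 on the allogeneic arrays. It passed the filter through that array alone, which sets its direction. The counted probe set did not pass the test in isotype (limma, adjusted p = 0.994).

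Against the same syngeneic array, 3 of the 9 genes fell in the day 0 group and 4 in the day 3 group. Over all genes, 4.18% fell and 3.13% rose in the day 0 group, and 4.3% fell and 3.16% rose in the day 3 group. None of the 9 rose. Fcer1g, Tyrobp and Cd14 fell in both, with log2 changes of -1.93 ± 0.25, -1.75 ± 0.20 and -1.72 ± 0.25 in the day 0 group (limma, adjusted p = 0.011, 0.00785 and 0.0155) and -2.04 ± 0.25, -1.78 ± 0.20 and -1.74 ± 0.25 in the day 3 group (adjusted p = 0.00933, 0.00781 and 0.0159). Fcgr3 fell in the day 3 group (-1.55 ± 0.34, adjusted p = 0.0485), a call that ended under 8 of 15 alternative settings, while its change in the day 0 group was -1.19 ± 0.34 (adjusted p = 0.0961). Fcgr1 passed in neither (-1.10 ± 0.29 and -1.07 ± 0.29, adjusted p = 0.0745 and 0.0797), and Tlr2 came near the threshold in the day 3 group (-0.95 ± 0.22, adjusted p = 0.0532). No gene of the 9 passed in the day 0 group without day 0 array 1, and 2 passed in the day 3 group without either day 3 array. With only the groups compared in the fit, all 4 day 3 calls ended (adjusted p = 0.0574 for Fcer1g, 0.054 for Tyrobp, 0.0552 for Cd14 and 0.0742 for Fcgr3). The 3 comparisons share the syngeneic array, and a call in one and not in another does not show that the groups differ.

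**Figure D2:**
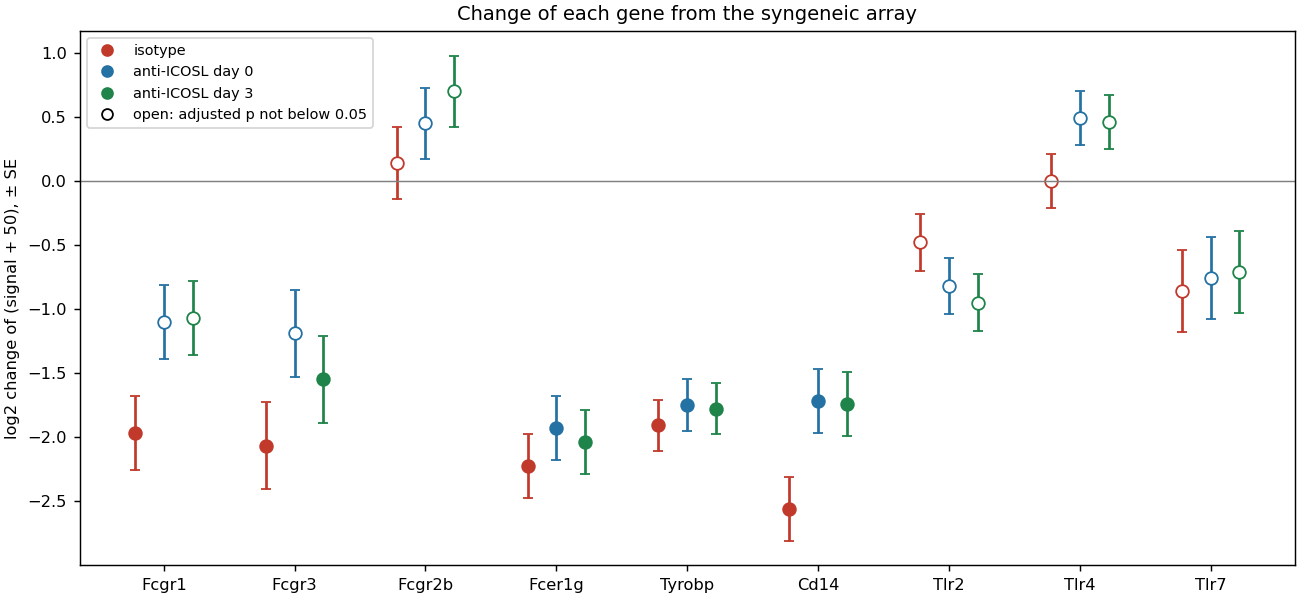
Log2 change of (signal + 50) of each gene from the syngeneic array in the 3 allogeneic groups, with the SE of the fit as bars. Filled points passed the adjusted threshold. Fcer1g lay between -2.23 and -1.93 and Tyrobp between -1.91 and -1.75 across the 3 groups, and Fcgr2b and the Toll-like receptors had no filled point.

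The comparison with isotype asks what the anti-ICOSL antibody altered among allogeneic recipients. The labels do not state on which day the isotype antibody was started, so the schedules of IgG may differ in these comparisons. None of the 9 genes passed at either start of treatment, and neither did any of the 15494 probe sets (0%). With limma, 4 of the 9 genes had an unadjusted p under 0.05 in each comparison. Of all probe sets, 7.26% did for day 0 and 10.3% for day 3. Fcgr1, Cd14 and Tlr4 were among the 4 in both comparisons, all higher, with Fcgr3 (higher) for day 0 and Tlr2 (lower) for day 3. The smallest adjusted p among the 9 was 0.51 for day 0 and 0.373 for day 3. Most of the genes lay above isotype: 8 of 9 had a higher mean with day 0 and 8 of 9 with day 3, with median log2 changes of 0.31 and 0.46 against 0.02 and 0.04 for all genes. Arrays lay wholly above the isotype arrays for 6 of 9 genes at each start, where 19.5% of all genes did for day 0 and 25.8% for day 3. For Fcgr3 on day 3, however, the gap was that between 345 and 344. The 6 on day 3 include Fcgr2b by its counted probe set. Its other probe sets lay wholly below isotype there (log2 changes of -0.61, -0.31 and -0.40). Tlr4, in both counts by its counted probe set, was near the filter. For Tlr2 the anti-ICOSL arrays lay wholly below isotype, as for 15.7% and 18.4% of all genes. Both comparisons use the same isotype arrays, so they do not count as separate evidence.

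Fcgr1, Cd14 and Fcgr3 had the largest differences from isotype in the day 0 group. Fcgr1 stood at 266 ± 67.3 (SD, n = 2) in the day 0 group and 271 ± 0.52 in the day 3 group, against 124 ± 39 in isotype. The log2 changes were 0.86 ± 0.23 and 0.90 ± 0.23 (limma, adjusted p = 0.559 and 0.375). Cd14 stood at 372 ± 88 and 360 ± 1.1 against 184 ± 29.3, with log2 changes of 0.84 ± 0.21 and 0.82 ± 0.21 (limma, adjusted p = 0.51 and 0.373). Fcgr3 stood at 542 ± 106 in the day 0 group and 413 ± 95.7 in the day 3 group, against 275 ± 97.3 (0.89 ± 0.28 and 0.53 ± 0.28, adjusted p = 0.592 and 0.554). In each of these 3 genes the anti-ICOSL values remained below the syngeneic signal.

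The adaptors differed less from isotype. Fcer1g had log2 changes of 0.31 ± 0.20 in the day 0 group and 0.19 ± 0.20 in the day 3 group (limma, adjusted p = 0.808 and 0.774), and Tyrobp 0.17 ± 0.16 and 0.13 ± 0.16 (0.878 and 0.816). Tlr4 had 0.50 ± 0.17 and 0.46 ± 0.17 on its counted probe set (0.651 and 0.454), and -0.10 ± 0.39 and -0.25 ± 0.39 on the other. That other probe set lay below the filter in these groups, with means of 59.5 in isotype, 53.8 in day 0 and 49.7 in day 3. Tlr2 was the gene that was lower in both groups, with log2 changes of -0.34 ± 0.18 and -0.47 ± 0.18 (0.772 and 0.456) and arrays that did not overlap those of isotype. Tlr7 had 0.09 ± 0.26 and 0.15 ± 0.26 (0.957 and 0.867).

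**Figure D3:**
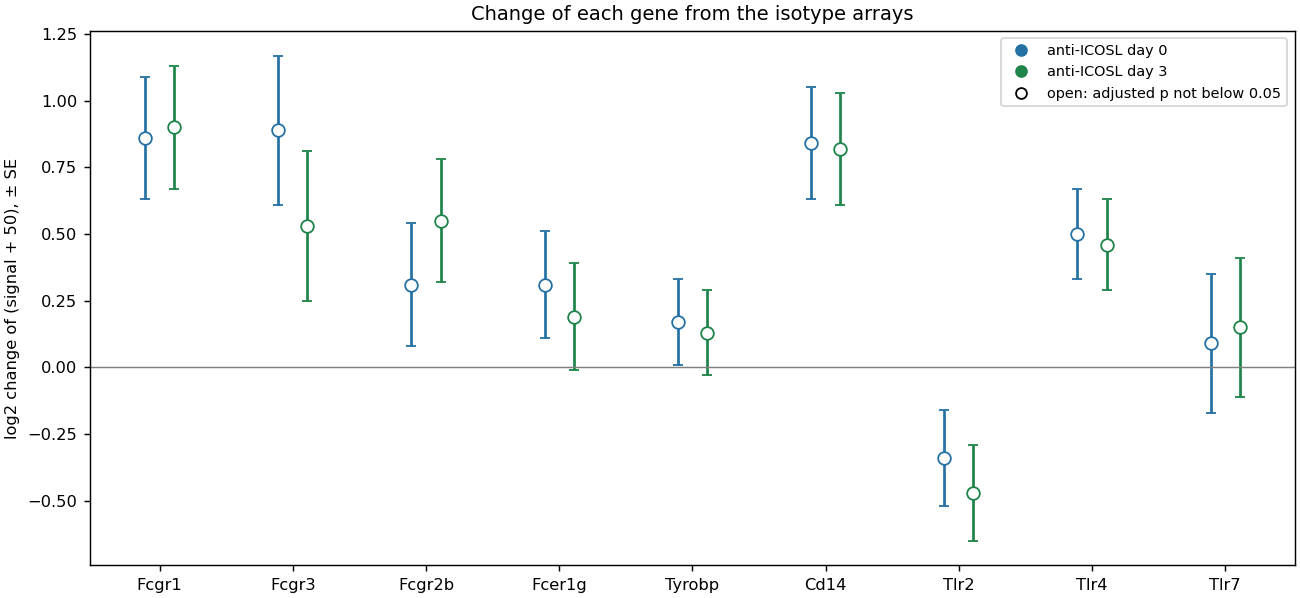
Log2 change of (signal + 50) of each gene from the isotype arrays in the day 0 and day 3 groups, with the SE of the fit as bars. All points are open, since none passed the adjusted threshold. Fcgr1 and Cd14 lay between 0.82 and 0.90 in both groups, and Tlr2 was below 0 in both.

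Set directly against each other, the day 0 and day 3 groups showed no difference that passed for any of the 9 genes with limma (smallest adjusted p = 0.852), and none of the 9 counted probe sets had an unadjusted p under 0.05, where 6.83% of all probe sets did. Of the 15 probe sets, 2 had one, both of them further sets of Fcgr2b. The estimates for Fcgr1 and Cd14 were -0.04 (95% interval -0.60 to 0.53) and 0.02 (-0.47 to 0.52). Among counted probe sets the widest gap was that of Fcgr3, higher with day 0 by 0.36 (-0.31 to 1.03). The narrowest of these intervals was that of Tyrobp, -0.36 to 0.43, so differences of these sizes remain possible and the data do not show that the schedules act alike.

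The 4 probe sets of Fcgr2b gave different answers on the day 3 arrays. The counted one, 1435476_a_at, was higher there than in isotype (1488 ± 91.5 against 1002 ± 118, SD, n = 2), with a log2 change of 0.55 ± 0.23 (limma, adjusted p = 0.488). The other 3 were lower, without overlap: 1435477_s_at at 757 and 675 against 1146 and 1093 (-0.61 ± 0.17, adjusted p = 0.385), 1451941_a_at at 412 and 388 against 519 and 493 (-0.31 ± 0.19, adjusted p = 0.619), and 1455332_x_at at 258 and 307 against 441 and 343 (-0.40 ± 0.20, adjusted p = 0.536). These 3 were also lower with day 3 than with day 0, with log2 differences of 0.35 to 0.60 for day 0 minus day 3 that did not pass. B cell markers, which mark a cell type known to carry Fcgr2b, summed to 16585 to 18192 in isotype and 12163 to 12819 in the day 3 group. They summed to 12406 to 13194 in the day 0 group, where these 3 probe sets had log2 changes of -0.01, 0.23 and -0.05 against isotype. The part of B cells in this was not tested. The platform table gives the same source transcript for 3 of the 4 probe sets, the counted one included, and the suffixes mark sets that match several transcripts (_a_at, _s_at) or share probes with other sequences (_x_at). No direction for Fcgr2b under anti-ICOSL from day 3 can therefore be given, and between isotype and syngeneic all 4 lay within -0.31 to 0.14.

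**Figure D4:**
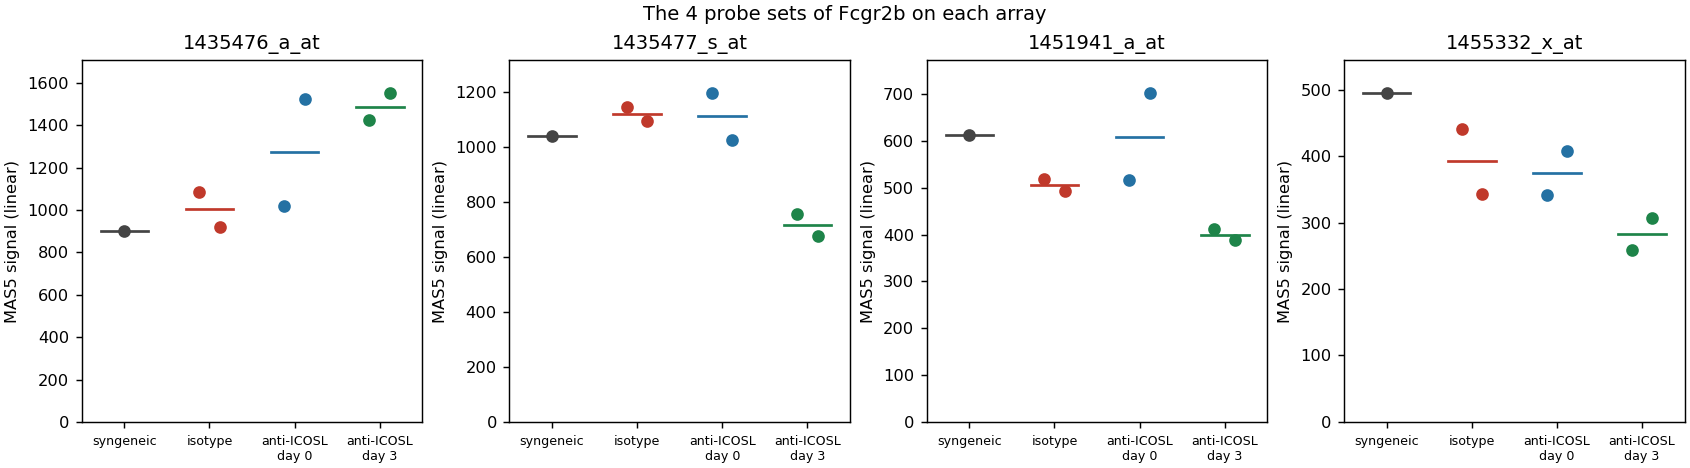
MAS5 signal (linear axis from 0) of the 4 probe sets of Fcgr2b on the 7 arrays, with points for arrays and lines for group means. In the day 3 group the first had its highest group mean, with arrays at 1423 and 1552, though a day 0 array reached 1525. The other 3 were at their lowest in the day 3 group.

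Genes of the surrounding pathways were followed in 6 lists of 126 genes, of which 105 had a probe set and 91 were tested. In isotype against syngeneic 12 of the 91 fell and 1 rose, with a median log2 change of -0.22, where 4.28% of all genes fell and 2.67% rose. Of Toll-like receptors and their accessory proteins 3 of 14 fell: Tlr1, the partner of Tlr2 (435 on the syngeneic array, 89.1 and 127 in isotype), Ly86, the MD-1 partner of Cd180 (3830, then 1688 and 1545), and Unc93b1, which carries Toll-like receptors to endosomes (1871, then 834 and 735). Ly96 (MD-2), the partner of Tlr4, had a log2 change of -0.99 (adjusted p = 0.0817). Of the adaptors and signalling proteins downstream 0 of 16 passed with limma, and 2 had an unadjusted p under 0.05. Myd88, the adaptor shared by most Toll-like receptors, had a signal of 1701 on the syngeneic array and 1786 and 1674 in isotype.

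Of 7 other Fc receptors tested, 2 fell: Fcgrt, the neonatal Fc receptor that recycles IgG, from 1005 to 205 and 204, and Fcer2a, the low-affinity IgE receptor of B cells, from 586 to 74.3 and 132. Fcgr4, the remaining activating Fc gamma receptor, had 1447 on the syngeneic array and 651 and 824 in isotype and did not pass (-0.93 ± 0.28, adjusted p = 0.112). Among kinases, phosphatases and scaffolds of Fc receptor signalling, Fgr, a Src family kinase of myeloid cells, was the 1 of 18 that fell (909 on the syngeneic array, 404 and 455 in isotype, adjusted p = 0.0392). Syk had a log2 change of -0.90 (adjusted p = 0.0801) and Inpp5d -0.83 (adjusted p = 0.158).

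Among receptors listed with the adaptors, 6 of 17 fell in isotype. Clec4n (dectin-2), which signals through Fcer1g, fell from 5640 to 784 and 856 (-2.71 ± 0.20, adjusted p = 0.00243). Cd300a fell with a log2 change of -2.63 ± 0.28 (adjusted p = 0.0055), Csf1r, the receptor for the macrophage growth factor, with -2.43 ± 0.20 (adjusted p = 0.00273), and Pirb with -2.31 ± 0.36 (adjusted p = 0.0183). Cd300a and Pirb carry inhibitory motifs of their own and Csf1r is a tyrosine kinase, so the list holds receptors of several kinds. Trem3 and Hcst (DAP10, the adaptor of Klrk1) fell as well (-1.40 and -1.06).

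Of the genes that Toll-like receptors induce, 1 of 19 rose in isotype, Marcksl1 (1.14 ± 0.20, adjusted p = 0.0263), and none fell. Il1b had a log2 change of -1.14 (adjusted p = 0.0574), Tnf 0.99 (adjusted p = 0.31) and Cxcl10 0.91 (adjusted p = 0.0626). In the day 0 group Il1b fell (-1.22, adjusted p = 0.0463) and Il10 rose against the syngeneic array, from 78.3 to 437 and 309 (1.71 ± 0.31, adjusted p = 0.0287). Against the syngeneic array 12 of the 91 fell and 3 rose in the day 0 group, among them Syk (-1.17 ± 0.24, adjusted p = 0.0375) and Fcrla (-1.55 ± 0.30), which fell, and Pik3cg (0.90 ± 0.19), which rose, and 10 fell and 0 rose in the day 3 group, among them Syk (-1.24 ± 0.24). Against isotype, none of the 91 pathway genes passed at either start with limma, and 12 had an unadjusted p under 0.05 for day 0 and 16 for day 3, where 7.26% and 10.3% of all probe sets did. Leaving out any 1 allogeneic array cut the 13 pathway calls in isotype against syngeneic to between 5 and 8.

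**Figure D5:**
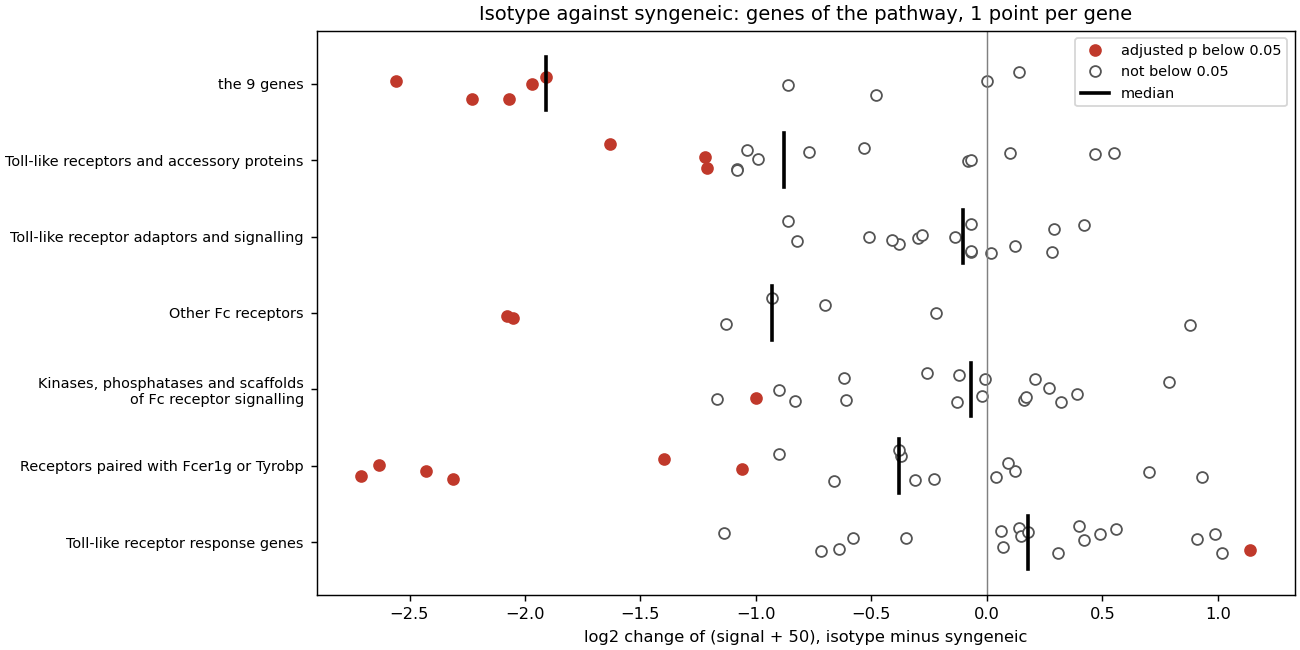
Log2 change of (signal + 50) in isotype against syngeneic for the 9 genes and 6 pathway lists, 1 point per gene with vertical position jittered within a list. Filled points passed the adjusted threshold and bars are medians. The medians ran from -1.91 for the 9 genes and -0.93 for other Fc receptors to 0.18 for genes that Toll-like receptors induce.

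Markers of cell types that carry these sensors, and of other cell types, were followed as well. Of 18 macrophage and monocyte markers tested, 15 fell in isotype, where 4.28% of all genes fell. Their summed signal was 73965 on the syngeneic array, 11127 to 11490 in isotype, 17602 to 17922 with day 0 and 13804 to 14835 with day 3. Of 12 neutrophil markers tested 9 fell, with sums of 42493, 11229 to 11508, 14443 to 15030 and 11558 to 12172 in the same order of groups. Of 9 B cell markers tested, 2 fell in isotype and 5 in each anti-ICOSL group against the syngeneic array. Of all genes, 4.28% fell in isotype, 4.18% with day 0 and 4.3% with day 3. None of the 9 passed against isotype, and the difference in calls does not show that the groups differ. Their sums were 27673, 16585 to 18192, 12406 to 13194 and 12163 to 12819 in the same order of groups. Natural killer cell markers summed to 10961 on the syngeneic array and 22697 to 28480 on the allogeneic arrays, but that sum was mostly Gzma, the 1 of 7 that rose in isotype. The other 6 summed to 3367 and to 2991 to 3868, and the median log2 change of the 7 was -0.38. Klra7 was called lower, but it passed the filter through the syngeneic array alone, as did Cd163 among the 15 macrophage and monocyte markers, so their direction was set by the filter. Of 8 dendritic cell markers none passed with limma (1 with an unadjusted p under 0.05), their sum being 2898 on the syngeneic array and 2514 to 3395 on the others, and mast cell and basophil markers, of which Kit fell, summed to 1994 and to 1144 to 1550. T cell markers, of which Cd4 and Zap70 rose in isotype, summed to 23424 and to 26988 to 34931 on the allogeneic arrays. No marker was at 0 on any array, but the deposited values carry no detection calls, so this does not show that each marker was detected. The part of cell composition in the results on Fc receptors and sensors was not tested.

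By the smallest root mean square difference between centred log2 profiles over the 7 arrays, among 9008 other genes, Fcer1g was most like Mertk, a macrophage receptor for dying cells (0.08), and Selenop, a selenium carrier (0.11). Tyrobp was listed nearest to Ctsf (0.06) and then to Atp8a1 (0.10), Fcgr1 like Myo9a (0.15) and Cadm1 (0.21), and Cd14 like Slc45a3 (0.16) and Cadm1 (0.17). Fcgr3 was nearest to Ttc27 (0.21) and Gys1 (0.23). Ctsf and Gys1 passed the filter through the syngeneic array alone, at 184 and 192, against means of 10.2 and 18.5 in isotype, so their likeness depends on the added 50 and does not hold for the signals themselves. Fcgr2b was nearest to Mab21l2 and Tiprl (both 0.06), Tlr2 to Kdm5a (0.05) and Tprgl (0.06), Tlr4 to Rpusd1 and Septin2 (both 0.06), and Tlr7 to Ublcp1 (0.10) and 6430548M08Rik (0.11). Within the 9 genes the closest pair was Fcer1g with Tyrobp (0.17), followed by Fcgr1 with Cd14 (0.23) and Fcgr2b with Tlr4 (0.23), and the farthest was Fcgr2b with Fcer1g (0.92). All these profiles are of counted probe sets, so those of Fcgr2b and Tlr4 do not stand for their other, disagreeing probe sets.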

How the data were processed

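The deposited values are linear MAS5 intensities, 1 per probe set, and the submitters' processing notes name MAS5 with no version. The authors' values carry no detection calls, and each array had been scaled to a trimmed mean of 500.18 to 500.19. Of 22690 probe sets, 64 controls were left out, and 20380 had 1 gene symbol, 691 several and 1555 none. Symbols were updated through gene IDs of the RefSeq annotation (GRCm38.p6), which also gave the promoter sequences: 5 of the 9 genes had one.

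Signals were analysed as log2(signal + 50). A probe set was tested when a group mean of these values reached the 40th percentile of all group means, which left 15494. One limma 3.58.1 fit in R 4.3.3 over all 7 arrays gave the 6 comparisons between the 4 groups, with 3 residual and 3.38 prior degrees of freedom. For the group with 1 array (syngeneic), the spread of the other groups was used. A gene with several probe sets was counted by the brightest over all arrays, and the others are reported. All 9 genes are named. From each list, up to 4 genes with the largest change among those that passed are named, plus the 2 nearest profiles of each of the 9. Further genes of the lists (Ly96, Myd88, Fcgr4, Syk, Inpp5d, Tnf, Cxcl10, Trem3 and Hcst, and Il1b in isotype) were named after their values were seen. The members and lists were chosen with earlier results of these data known. The procedure was tested on simulated data in which the single syngeneic array was given the spread of the other groups. That assumption itself was therefore not tested. An item withheld for evaluation is not reported here. The number of arrays limits the precision.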

Additional observations from a re-analysis of the deposited data

How the results depend on the processing

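The settings tried were median centring, quantile normalization, the replicate block, a pseudocount of 16 or 100, a stricter filter (60th percentile), no filter, only the groups compared, limma with trend and robust options, other probe sets and each array left out. With 1 array left out, the 5 genes of the 9 called in isotype against syngeneic became 3 to 5 (fewest without isotype array 1), the 3 in day 0 against syngeneic 0 to 3 (0 without day 0 array 1) and the 4 in day 3 against syngeneic 2 to 4. The 1028, 1086 and 1118 probe sets called became 406 to 679, 246 to 897 and 271 to 917, and the 13, 15 and 10 pathway genes 5 to 8, 2 to 8 and 4 to 7.

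The day 0 count was 6 with the stricter filter and 5 with trend and robust, and the day 3 count was 0 with only the groups compared. Called probe sets in the order isotype, day 0 and day 3 against syngeneic were 1627, 1802 and 1809 with the stricter filter, 542, 552 and 526 with no filter, 1780, 1942 and 1902 with trend and robust, and 603 (isotype) and 149 (day 3) with only the groups compared. Pathway genes were 22, 25 and 23 with the stricter filter, 23, 24 and 22 with trend and robust, 7 and 7 with no filter (isotype, day 0), 7 and 1 with only the groups compared (isotype, day 3), 9 in day 0 with a pseudocount of 16 and 16 in day 3 with 100. Each anti-ICOSL start against isotype, and the 2 starts against each other, had 0 called probe sets, against 13, 8 and 7 with the stricter filter, 4, 2 and 6 with a pseudocount of 100 and 21, 5 and 12 with trend and robust, none of them of the 9 genes. The cause of these moves was not tested.

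Sample numbers did not pair the arrays (r of the difference between numbers 1 and 2 between groups of -0.010, 0.078 and 0.040). The replicate block took pathway genes in day 0 against syngeneic to 7, ended the call of Fcgr3 in day 3 against syngeneic (adjusted p = 0.0753) and moved no other count by over 1.5 times.

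Directions that reversed were all of values that did not pass. Further probe sets of Fcgr2b gave -0.25 and -0.31 in isotype, -0.02 and -0.37 in day 0 and -0.51, -0.56 and -0.72 in day 3 against syngeneic, -0.01 and -0.05 in day 0 and -0.61, -0.31 and -0.40 in day 3 against isotype, and 0.60, 0.54 and 0.35 in day 0 against day 3. The second probe set of Tlr4 gave -0.89 and -1.05 against syngeneic and -0.10 and -0.25 against isotype. A further one of Tlr7 gave -0.25 and -0.40 against isotype and 0.15 in day 0 against day 3. Tlr4 in isotype against syngeneic was 0.09 with median centring and -0.13 to 0.12 with 1 array left out, and Tlr7 against isotype was then -0.28 to 0.47 (day 0) and -0.22 to 0.53 (day 3). In day 0 against day 3, Fcgr1 was 0.01 with median centring, and with 1 array left out Fcgr1 was -0.26 to 0.18, Fcgr2b -0.52 to 0.04, Fcer1g -0.06 to 0.29, Tyrobp -0.06 to 0.13, Cd14 -0.19 to 0.24, Tlr4 -0.03 to 0.10 and Tlr7 -0.13 to 0.01. Signals of Tlr2 and Tlr4 near the filter limit what can be read from them.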
